A study of Mus musculus with 6 samples.

Results

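Integrins and laminins were described in heart ventricles of mouse embryos that lack skNAC, the long muscle form of the protein encoded by Naca. Integrins are the cell-surface receptors for extracellular matrix, and laminins are the main glycoproteins of basement membranes. Members were all genes whose single platform symbol names a numbered integrin alpha or beta subunit, integrin alpha v, or a numbered laminin alpha, beta or gamma chain. They came to 31 genes, 21 integrins and 10 laminins, of 18193 genes with a single-symbol probe set, and were read by 70 probe sets. A probe set is the group of short oligonucleotides that reads one transcript. Each gene was represented by its brightest probe set over all 6 arrays. The symbol rule leaves out the lettered leukocyte alpha subunits such as Itgam.

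The samples were 3 arrays of knockout ventricle, from embryos in which skNAC was deleted by gene targeting, and 3 arrays of ventricle from wild-type littermates. All came from stage E11.5 and strain 129SvEv, and each sample began as 500 ng of total RNA, amplified and hybridised to Affymetrix Mouse Genome 430 2.0 arrays. The knockout arrays bear the numbers 1, 26 and 66 and the wild-type arrays 13, 23 and 57, and values by array are given in that order throughout. The labels do not say whether an array held 1 heart or several, nor the sex of the embryos. They state that loss of skNAC was lethal by E12.5, with defects of the heart. The p-values measure the spread between these arrays, which may be partly technical.

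An integrin is a pair of 1 alpha and 1 beta chain. The alpha chain largely sets the ligand, and the beta chain tail binds talin and kindlin and so joins the matrix to the actin cytoskeleton. A laminin is a cross-shaped trimer of 1 alpha, 1 beta and 1 gamma chain that polymerises on the cell surface and is bound there by integrins and dystroglycan. In the embryonic heart, basement membranes lie under the endocardium and the epicardium and around cardiomyocytes. Between endocardium and myocardium lies the cardiac jelly, a matrix through which trabeculae grow.

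Signals are MAS5 values on a linear scale. The mean of every array, trimmed by 2%, came to 250 when computed from the files, so each value is relative to the rest of its array. Signals of different probe sets cannot be ranked as transcript amounts. Array medians lay between 92.0 and 114.0. The first principal component, with 38.7% of the variance, set knockout 66 (55.9) apart from the other arrays (-24.7 to 4.79). The 3' to 5' signal ratio of actin was 2.49 to 2.57 in knockout and 2.05 to 2.24 in wild-type, and that of Gapdh 1.28 to 1.45 in knockout and 1.12 to 1.196 in wild-type. For Naca, the targeted gene, 1 probe set read 9047, 9034 and 8595 in knockout, against 8385, 8566 and 8286 in wild-type, and another 9762, 8406 and 7406 in knockout, against 8280, 8314 and 7504 in wild-type. Neither averaged lower in knockout, so these probe sets do not check the genotype labels, and which transcript form each reads was not stated in the labels or files. Defining markers of the labelled tissue, 10 of 10 for cardiomyocytes and 10 of 10 for endothelium and endocardium, were above the signal filter described next.

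No integrin or laminin gene passed the test between genotypes, and neither did any other gene. The test was run on log2(signal + 16), over probe sets whose mean of these log2 values across the 6 arrays was above the median of all probe sets, which corresponds to a signal of 95.2. That filter kept 20 members, 14 integrins and 6 laminins, of 11661 genes. In limma with Benjamini-Hochberg adjustment over those 11661 genes, 0 members and 0 genes (0% of genes) had an adjusted p under 0.05. Adjusted p over the members ran from 0.974 to 0.999. At an unadjusted p under 0.05 there were 2 members of 20, Itga1 and Lamb1, both lower in knockout, where 2.51% of all genes were lower, 2.18% higher and 4.69% past that mark in either direction. Without knockout 1 the count was 1 (Itga1), with 7.16% of all genes past the mark. Without knockout 26 it was 4 (Itga1, Itga6, Lama5 and Lamb1), with 4.13% of all genes, and without knockout 66 it was 2 (Itga1 and Itgb5), with 7.48%. It was 1 (Itga1) without wild-type 23, with 2.8% of all genes, and 0 without wild-type 13 or wild-type 57, with 3.55% and 3.53%. Of the 32 member probe sets tested, 3 were past the mark, against 4.81% of all 22518 probe sets. Among them was a dim Itga4 probe set whose wild-type values all lay under the filter signal.

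The members that could be tested lay more often below 0 than above it, by small amounts. Of the 20, 15 had a negative log2 difference (knockout minus wild-type), against 49.6% of all genes tested, and their median was -0.13, against 0.0023 for all genes tested. Without knockout 1, 11 of the 20 were negative, against 48.8% of all genes, and leaving out any other single array gave 13 to 16. Over all 31 members, tested or not, 19 were negative and the median was -0.027, against 49.5% and 0.0028 for all 18193 genes. The genotypes did not overlap in 2 of the 20 members (Itga1 below, Itgav above), and in 10.9% of all genes tested. Knockout was below in 5.45% of all genes tested and above in 5.4%. The median 95% interval of a member reached 0.41 on either side of its estimate on the log2 scale, the same as for all genes. With 3 arrays per genotype, differences smaller than that mostly could not be told from 0 even before adjustment. The adjusted test detects less: it called no gene, though differences over all genes tested ran from -1.95 to 1.52. In bulk ventricle RNA, fewer cells of a type and less transcript per cell cannot be told apart.

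**Figure D1:**
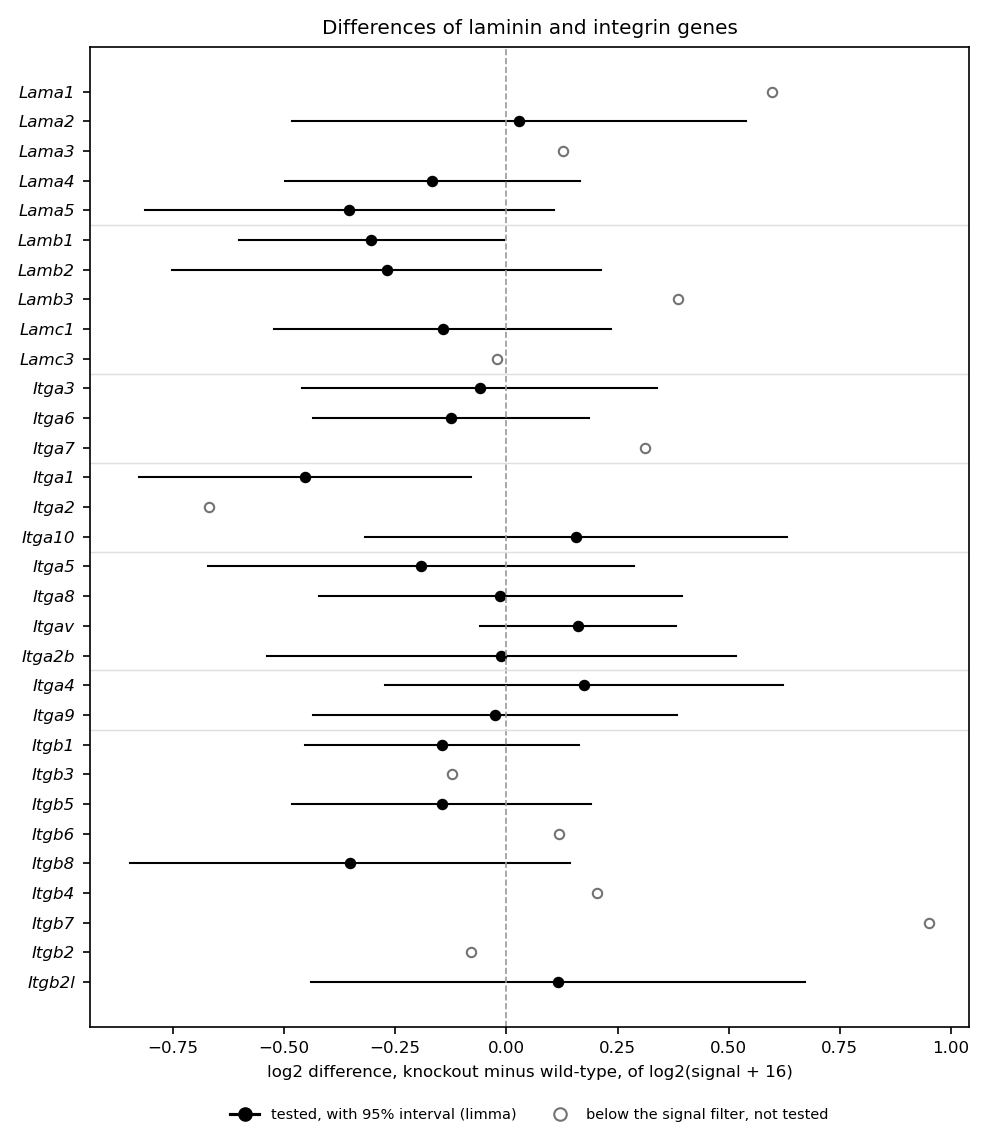
Log2 differences of log2(signal + 16), knockout minus wild-type (x axis), for the 31 laminin and integrin genes (y axis, grouped by role, laminins first). Filled points are the 20 tested genes with 95% intervals from limma, and open points are the 11 genes below the signal filter, which were not tested. Of the tested genes, the intervals of Itga1 and Lamb1 alone lie wholly below 0, and none lies wholly above it.

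Among the laminin beta and gamma chains, Lamb1 had the smallest p. Lamb1 encodes the beta 1 chain, a partner in most laminins of the early embryo. Lamb1 read 1132, 1373 and 999 in knockout, against 1466, 1326 and 1514 in wild-type. Knockout 1 and knockout 66 were below every wild-type array, while knockout 26 lay within the wild-type range. Means were 1168 ± 189.7 in knockout and 1435 ± 98.0 in wild-type (SD, n = 3 each), and the log2 difference was -0.30 ± 0.14 (SE), with a 95% interval of -0.60 to -0.0063. In limma the unadjusted p was 0.0461 and the Benjamini-Hochberg adjusted p 0.974. The difference was -0.20 without knockout 66 and -0.13 with array quality weights.

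The other Lamb1 probe sets pointed the same way. One read 294, 374 and 214 in knockout, against 438, 376 and 325 in wild-type, which differed by -0.38 ± 0.21 in log2. Another read 94.0, 114 and 44.7 in knockout, against 118, 154 and 109 in wild-type, a difference of -0.57 ± 0.34. Its mean was 84.3 in knockout, under the filter signal of 95.2, and 127.1 in wild-type. This dim probe set passed the filter only through wild-type, so its difference is weak evidence of agreement. In all 3 tested Lamb1 probe sets the lowest of the 6 arrays was knockout 66, the array set apart on the first principal component.

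Lamb2 and Lamc1 were also below 0 on average. Lamb2 encodes the beta 2 chain, found in laminins of muscle and vessel walls. Lamb2 read 119, 174 and 164 in knockout, against 176, 173 and 207 in wild-type. Knockout 1 was the low array, knockout 26 lay between the wild-type values and knockout 66 just under them. The log2 difference was -0.27 ± 0.22, with a 95% interval of -0.75 to 0.21, and it was -0.12 without knockout 1. Lamc1 encodes the gamma 1 chain, which most laminins share. Lamc1 read 523, 843 and 696 in knockout, against 797, 677 and 773 in wild-type. Knockout 1 was below and knockout 26 above all wild-type arrays, so the knockout arrays bracketed the wild-type ones. The log2 difference was -0.14 ± 0.17 (-0.52 to 0.24), and it was 0.036 without knockout 1.

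Of the laminin alpha chains, Lama5 had the largest difference among those tested. Lama5 encodes the alpha 5 chain of many basement membranes. Lama5 read 148, 237 and 185 in knockout, against 253, 259 and 219 in wild-type. Knockout 1 and knockout 66 were below all wild-type arrays, and knockout 26 was within their range. Means were 189.9 ± 44.6 in knockout and 244 ± 21.9 in wild-type (SD, n = 3 each). The log2 difference was -0.35 ± 0.21, with a 95% interval of -0.81 to 0.11, an unadjusted p of 0.119 and an adjusted p of 0.974 in limma. A second Lama5 probe set read 206, 140.4 and 174 in knockout, against 240.3, 219 and 191 in wild-type, a difference of -0.31 ± 0.21. The probe sets had the same sign but not the same low array, which was knockout 1 for the first and knockout 26 for the second. The difference of the first was -0.20 without knockout 1.

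Lama4 and Lama2 gave smaller differences. Lama4 encodes the alpha 4 chain, typical of endothelial and some muscle basement membranes. Lama4 read 501, 578 and 586 in knockout, against 741, 567 and 575 in wild-type. Wild-type 13 stood above all other arrays, and the remaining 5 lay between 501 and 586. The difference was -0.17 ± 0.15 (-0.50 to 0.17), and it was -0.044 without wild-type 13. Lama2 encodes the alpha 2 chain of the laminin around muscle fibres. Lama2 read 138, 241 and 212 in knockout, against 211, 189 and 167 in wild-type. The knockout arrays held both the lowest and the highest value. The difference was 0.029 ± 0.23 (-0.48 to 0.54), with no settled sign: it was 0.25 without knockout 1 and -0.12 without knockout 26.

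Knockout 1 was the low array for most laminin chains. It held the lowest value in 5 of the 6 tested laminins (Lamb1 was the exception), where it was lowest in 17.8% of all genes tested. The mean log2 deviation of the 6 laminins from their own average was -0.36 in knockout 1, 0.14 in knockout 26 and -0.076 in knockout 66. In wild-type 13, 23 and 57 it was 0.19, 0.039 and 0.078. Knockout 26 was therefore above 2 of the 3 wild-type arrays, and the other knockout arrays were below all of them. Of the 6, 5 were below 0 with a median of -0.22, against 0.0023 over all genes tested. The median was -0.11 without knockout 1, -0.33 without knockout 26, -0.20 without knockout 66, and -0.20 after quantile normalization. Over all 10 laminins, tested or not, 6 were below 0 and the median was -0.082.

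The same array was high in erythroid markers. The mean deviation of 6 tested erythroid markers was 0.69 in knockout 1, -0.092 in knockout 26 and -0.52 in knockout 66, against 0.089, -0.43 and 0.26 in wild-type 13, 23 and 57. Summed signal of the 7 measured erythroid markers was 75440 in knockout 1, 55443 to 58130 in the other knockout arrays and 50800 to 61429 in wild-type, and no measured erythroid marker was at 0. Their part in the low laminin signals of knockout 1 was not tested.

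**Figure D2:**
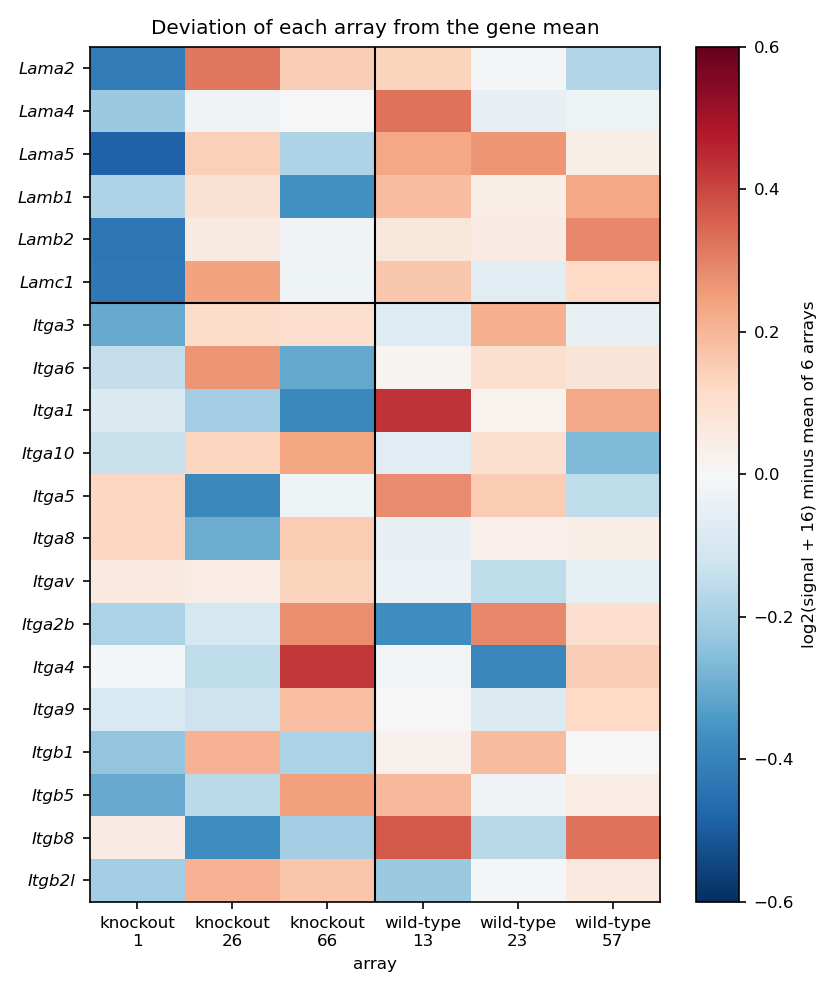
Deviation of log2(signal + 16) from each gene's mean over the 6 arrays (colour, red above and blue below), for the 20 tested genes (rows, laminins above the line) and the arrays (columns, knockout left of the line). The laminin rows are bluest in knockout 1, except Lamb1, which is bluest in knockout 66, and no single array is bluest in most of the integrin rows.

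Among the receptors that bind laminin are those with the alpha 3, alpha 6 or alpha 7 chain. Itga6 read 1809, 2404 and 1610.4 in knockout, against 2023, 2137 and 2108 in wild-type. The wild-type arrays agreed closely, while the knockout arrays lay on both sides of them, knockout 26 above and knockouts 1 and 66 below. The log2 difference was -0.13 ± 0.14 (-0.44 to 0.19), and a second Itga6 probe set gave -0.043 ± 0.20. Without knockout 26 the difference was -0.29, and with array quality weights it was 0.065. Itga3 gave -0.06 ± 0.18, from signals of 293 ± 47.7 in knockout and 305 ± 36.5 in wild-type (SD, n = 3 each).

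Itga7, the laminin receptor chain of mature skeletal and cardiac muscle, was far below the filter. Its only probe set read 5.30, 5.80 and 34.2 in knockout, against 6.70, 9.80 and 4.80 in wild-type, and 5 of the 6 values were under 10. It was not tested, and the level of the transcript at this stage cannot be read from values so near the bottom of the scale.

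Receptors for collagen are formed by the alpha 1, alpha 2, alpha 10 and alpha 11 chains with beta 1, and Itga1 had the smallest p of all members. Itga1 read 331, 304 and 266 in knockout, against 483, 358 and 416 in wild-type. Every knockout array was below every wild-type array, and the gap between the highest knockout and the lowest wild-type array (331 and 358) was smaller than the spread within either genotype. Means were 301 ± 33.0 in knockout and 419 ± 62.7 in wild-type (SD, n = 3 each). The log2 difference was -0.45 ± 0.17, with a 95% interval of -0.83 to -0.080, an unadjusted p of 0.0216 and an adjusted p of 0.974 in limma. Leaving out 1 array at a time gave -0.56 to -0.35, with unadjusted p up to 0.102, reached without wild-type 13. A second, dim Itga1 probe set below the filter gave 0.23, the opposite sign.

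Itga2 lies beside Itga1 with no coding gene between them in the RefSeq gene table of assembly GRCm38.p6. Its signals were below the filter and were not tested. Itga2 read 51.1, 24.6 and 85.4 in knockout, against 93.1, 80.0 and 89.8 in wild-type, which differed by -0.67 in log2 and overlapped between genotypes through knockout 66. Itga10, a collagen receptor chain best known from cartilage, gave 0.16 ± 0.22, from 175 ± 24.7 in knockout and 156 ± 21.3 in wild-type.

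The sequences around the RefSeq start sites of Itga1 and Lamb1 are shown because these were the members with an unadjusted p under 0.05. Each holds the 250 bases before and 50 bases from the start site, which is base 251, 5′ to 3′ on the gene's strand in build GRCm38.p6. Capitals mark 3 promoter motifs searched on both strands at any position of the window, GGGCGG (the GC box bound by Sp1), CCAAT and TATAAA. Itga1 lies on the minus strand at chr13:115101915-115102214, and Lamb1 on the plus strand at chr12:31265043-31265342.
Itga1: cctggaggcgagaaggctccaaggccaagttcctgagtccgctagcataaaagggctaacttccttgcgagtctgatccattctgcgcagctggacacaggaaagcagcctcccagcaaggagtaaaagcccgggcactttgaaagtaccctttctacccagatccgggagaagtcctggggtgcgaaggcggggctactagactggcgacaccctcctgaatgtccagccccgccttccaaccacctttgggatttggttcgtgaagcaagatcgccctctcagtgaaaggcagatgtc
Lamb1: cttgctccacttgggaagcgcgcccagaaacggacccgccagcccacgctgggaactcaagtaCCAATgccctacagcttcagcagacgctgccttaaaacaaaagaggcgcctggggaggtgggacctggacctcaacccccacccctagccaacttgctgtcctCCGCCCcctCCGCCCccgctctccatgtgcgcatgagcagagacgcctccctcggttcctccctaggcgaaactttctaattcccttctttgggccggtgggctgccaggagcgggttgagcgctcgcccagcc
The Lamb1 window held 2 GC boxes, both on the opposite strand, and 1 CCAAT box, and no matches overlapped. The Itga1 window held none of the 3. Its GC content was 56.7% and that of the Lamb1 window 63.7%, against a median of 52.7% over all 32851 promoter windows of the table.

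Promoter windows were found for 21 of the 31 members, 24 windows in all. A GC box stood in 11 of the 24 (45.8%), against 35.7% of all windows. CCAAT stood in 3 (12.5%), against 37.4%, and TATAAA in 0 of the 24, against 13.6%. These are matches of letters, and nothing in the arrays bears on binding there.

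Receptors for fibronectin, vitronectin and related ligands recognise a short Arg-Gly-Asp stretch through alpha v, alpha 5, alpha 8 or alpha 2b. Itgav, the alpha v chain, was the one member whose knockout arrays all lay above wild-type. Itgav read 2045, 2025 and 2155 in knockout, against 1917, 1763 and 1886 in wild-type. Means were 2075 ± 69.8 in knockout and 1855 ± 81.2 in wild-type (SD, n = 3 each), and the log2 difference was 0.16 ± 0.10 (-0.06 to 0.38), with an unadjusted p of 0.137 and an adjusted p of 0.974 in limma. The arrays overlapped after quantile normalization and after centring on array medians. Its other 4 probe sets were below the filter.

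Itga5 encodes the alpha 5 chain of the main fibronectin receptor. Itga5 read 209.8, 142 and 187 in knockout, against 236, 214 and 170.4 in wild-type. The genotypes overlapped, with knockout 26 the low array, and the difference was -0.19 ± 0.22 (-0.67 to 0.29). It was -0.045 without knockout 26. A second tested Itga5 probe set gave -0.33 ± 0.32, through 1 low array, knockout 1 (53.8, where the other 5 read 120.2 to 133). Itga8 gave -0.013 ± 0.19 and Itga2b, the platelet alpha chain, -0.012 ± 0.24.

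Itga4 and Itga9 encode related alpha chains that bind fibronectin, Vcam1 and tenascin, and alpha 4 is required for the epicardium in mouse embryos. Itga4 read 336, 302 and 458 in knockout, against 333, 254 and 375 in wild-type. The genotypes overlapped and knockout 66 was the highest array. The difference was 0.17 ± 0.20 (-0.27 to 0.62), and 0.0067 without knockout 66. A dimmer tested Itga4 probe set separated the genotypes, at 109, 136 and 151 in knockout, against 86.2, 92.7 and 64.8 in wild-type. Its difference was 0.61 ± 0.28, with an unadjusted p of 0.0498 and an adjusted p of 0.975 over probe sets in limma. With the mean of both Itga4 probe sets the difference was 0.39, which carries the same limit.

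Itga9 read 198, 193 and 243 in knockout, against 212, 200.1 and 233 in wild-type. These values overlapped fully, with a difference of -0.027 ± 0.19 (-0.44 to 0.38), and its sign turned on leaving out knockout 1 (0.014), knockout 26 (0.030) or wild-type 57 (0.028). The second tested Itga9 probe set gave 0.0024 ± 0.24.

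The beta 1 chain, Itgb1, pairs with most of the alpha chains above. Itgb1 read 1013, 1386 and 1046 in knockout, against 1217, 1368 and 1199 in wild-type. Knockout 1 and knockout 66 were below the wild-type arrays and knockout 26 above them. The log2 difference was -0.15 ± 0.14 (-0.45 to 0.16). A second probe set read 803, 945 and 981 in knockout, against 1035, 1156 and 1015 in wild-type, with no overlap between genotypes, a difference of -0.23 ± 0.13 and an unadjusted p of 0.0951 (adjusted p over probe sets 0.975 in limma). The third tested probe set gave -0.13 ± 0.22, so all 3 were below 0, and the difference of the first was -0.063 without knockout 1, -0.29 without knockout 26, -0.086 without knockout 66 or without wild-type 23, and -0.012 with array quality weights.

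Beta 5 and beta 8 pair with alpha v. Itgb5 read 795, 879 and 1169.6 in knockout, against 1128, 971 and 1016 in wild-type. Knockout 66 was the highest array and the other knockout arrays the lowest. The difference was -0.15 ± 0.15 (-0.48 to 0.19), or -0.30 without knockout 66 and -0.030 without knockout 1, and all 4 tested Itgb5 probe sets were below 0 (-0.37 to -0.088). Itgb8 encodes the beta 8 chain, through which alpha v activates latent TGF-beta. Itgb8 read 188, 137 and 155 in knockout, against 239, 159.9 and 231 in wild-type. Knockout 26 and knockout 66 were below all wild-type arrays, and knockout 1 was above wild-type 23. The difference was -0.35 ± 0.23 (-0.85 to 0.14), with an unadjusted p of 0.146 and an adjusted p of 0.974 in limma. Itgb2l, a relative of the leukocyte beta 2 chain whose probe set may read both, gave 0.12 ± 0.25. Tested members given here with no p of their own had an unadjusted p of 0.245 or more.

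No array was the lowest or the highest in most of the integrins. Of the 14 tested, 10 were below 0 with a median of -0.043, against 0.0023 over all genes, and the median moved to -0.0083 without knockout 1, -0.0076 without knockout 26 and -0.11 without knockout 66. The mean deviation of the 14 was -0.096 in knockout 1, -0.060 in knockout 26 and 0.057 in knockout 66, against 0.034, 0.019 and 0.045 in wild-type 13, 23 and 57. Knockout 66 held the highest value in 6 of the 14, where it was highest in 27% of all genes tested, and knockout 1 in none. Of the 8 members with more than 1 tested probe set, laminins included, 7 had all of them on the same side of 0, and Itga9 was the exception.

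**Figure D3:**
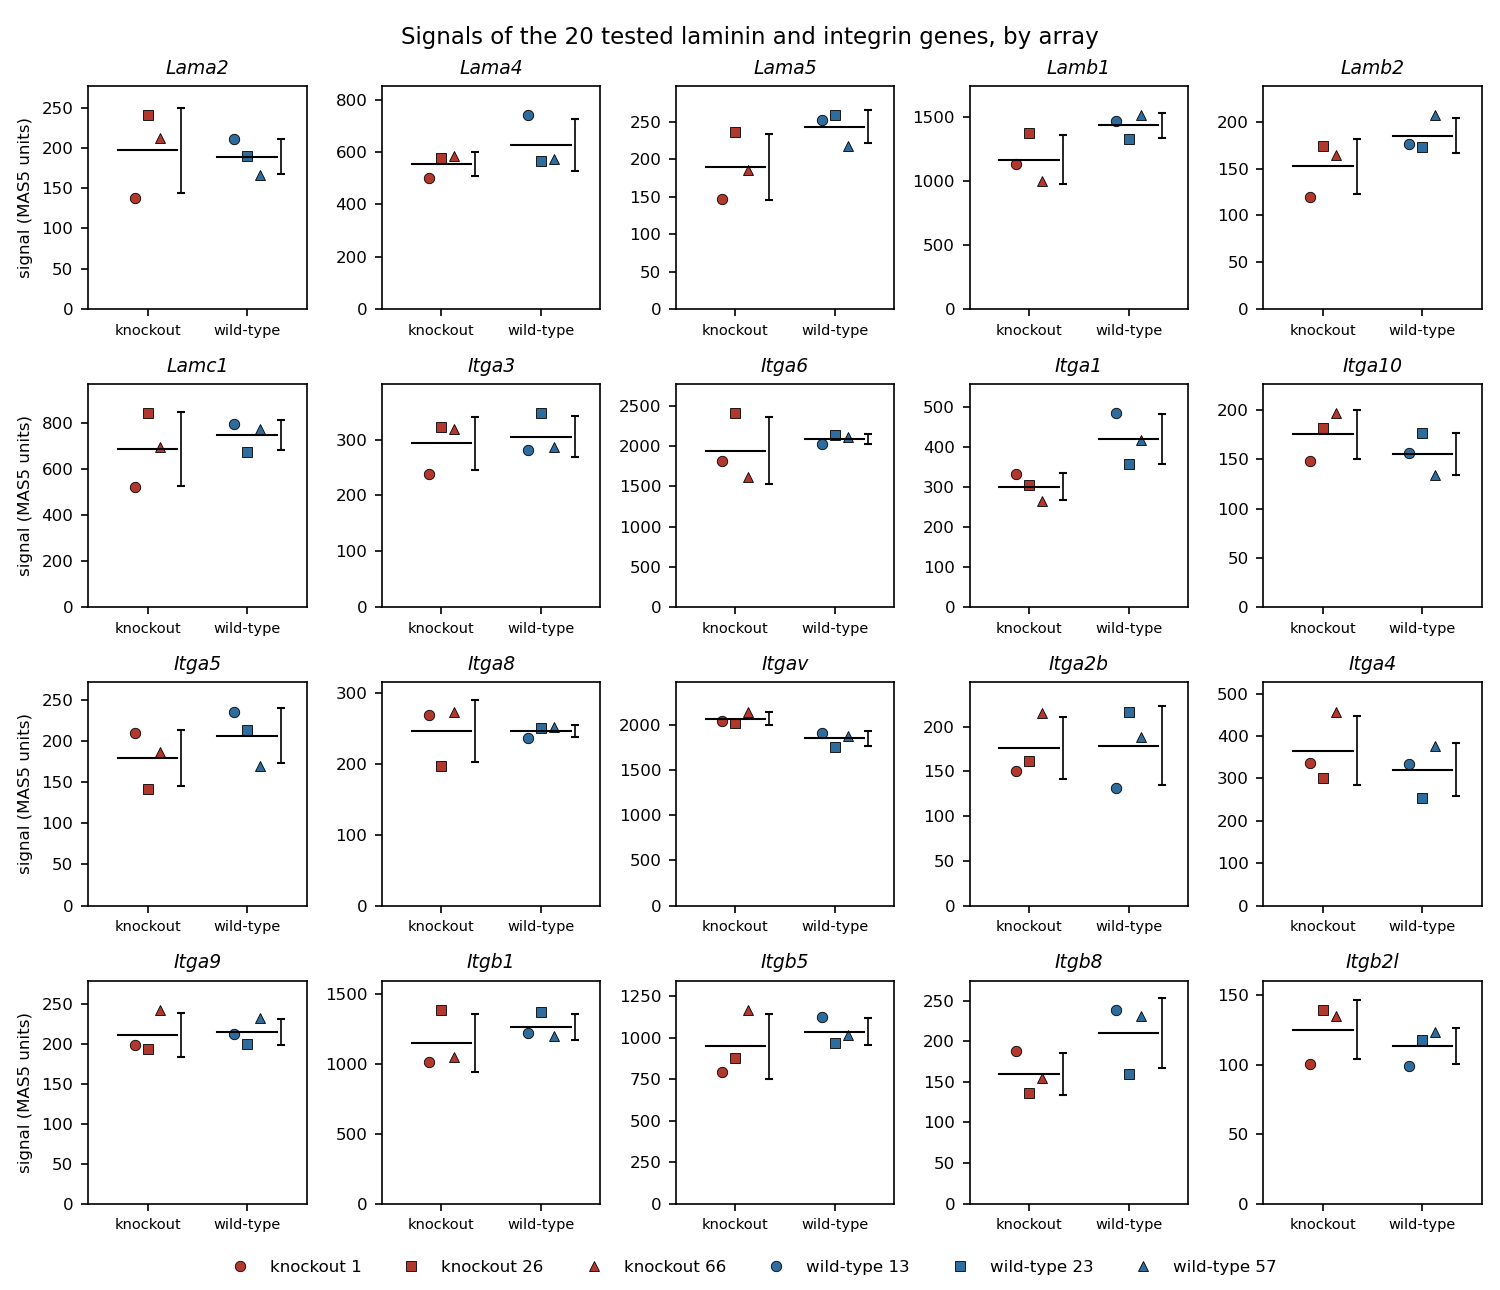
MAS5 signal (y axis, linear from 0, own scale per gene) of the 20 tested genes in knockout (left, red) and wild-type (right, blue) arrays, with the symbol showing the array. Bars mark means and whiskers the SD of 3 arrays. The genotypes are apart in Itga1, with knockout below, and in Itgav, with knockout above, and overlap in the other 18 panels.

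The 11 members below the filter included chains known from epithelia, leukocytes and platelets. Among them were Lama3, Lamb3 and Itgb4, the laminin and receptor chains of epidermal anchoring, and Itgb6, of epithelia. Itgb2 and Itgb7 are leukocyte beta chains and Itgb3 is the platelet and vascular one. Lama1, of the earliest embryonic basement membranes, Lamc3, Itga2 and Itga7 made up the rest. Their signals ran from 4.30 to 220.5 over single arrays, and their differences from -0.67 (Itga2) to 0.95 (Itgb7), untested. Lama1 read 107, 85.4 and 105 in knockout, against 48.3, 47.0 and 90.9 in wild-type, which overlapped through wild-type 57. Itgb7 read 91.3, 109.6 and 221 in knockout, against 61.9, 21.2 and 136 in wild-type, with knockout 66 the highest array. Itgb3 read 59.8, 80.6 and 126 in knockout, against 59.2, 125 and 110.3 in wild-type. Both overlapped between genotypes.

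Genes that work with integrins and laminins were described from lists of partners, and no list member passed the test after adjustment. These lists, and those of cell markers below, were chosen with earlier results of these data known. Their counts beside the shares of all genes are therefore description only, and no excess can be read from them. Basement membrane partners of laminin, such as nidogens, perlecan, agrin and collagen IV, had 16 of 17 members tested. Of these 12 were below 0 (49.6% of all genes tested), with a median of -0.077, and 2 had an unadjusted p under 0.05, both lower (2.51% of all genes). Agrn, a heparan sulphate proteoglycan that binds laminin and dystroglycan, read 447, 520.4 and 564 in knockout, against 815, 638 and 625 in wild-type. Npnt, nephronectin, a ligand of integrin alpha 8 beta 1, read 277, 305 and 256 in knockout, against 361, 356 and 386 in wild-type. The genotypes did not overlap in either (knockout was below in 5.45% of all genes), with log2 differences of -0.42 ± 0.15 and -0.38 ± 0.16 and adjusted p of 0.974 in limma. Averaged over the list, the deviation was -0.18 in knockout 1 and between -0.016 and 0.10 in all other arrays, so knockout 1 was the low array here as in the laminins.

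Adaptors that link integrins to actin had 21 of 25 members tested, 13 of them below 0 (49.6% of all genes tested), with a median of -0.037. The 2 with an unadjusted p under 0.05, both lower (2.51% of all genes), were tensins, which bind beta chain tails. Tns3 read 1108, 1278 and 1239 in knockout, against 1788, 1516 and 1404 in wild-type. Its difference was -0.37 ± 0.13, with no overlap between genotypes (knockout was below in 5.45% of all genes). Tns1 read 831, 808 and 1111 in knockout, against 1264, 1156 and 1057 in wild-type, a difference of -0.34 ± 0.15, with knockout 66 inside the wild-type range. Talin 1 (Tln1) gave 0.081 ± 0.16, vinculin (Vcl) -0.027 ± 0.10, the integrin-linked kinase (Ilk) -0.085 ± 0.12 and kindlin 2 (Fermt2) 0.088 ± 0.10.

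Other ligands of integrins had 18 of 23 members tested, 13 of them below 0 (49.6% of all genes tested), with a median of -0.12. Of these, 4 had an unadjusted p under 0.05, all lower (2.51% of all genes): Ccn2, Col1a1, Postn and Col1a2, at differences of -0.68 ± 0.16, -0.51 ± 0.14, -0.68 ± 0.24 and -0.35 ± 0.15. Their adjusted p was 0.797 or more in limma. Ccn2, a matrix protein of the CCN family, read 534, 523 and 632 in knockout, against 1116, 857 and 783 in wild-type. Col1a1, a chain of the fibrillar collagen that integrins alpha 1 and alpha 2 bind, read 616, 489.6 and 523 in knockout, against 727, 774 and 830.2 in wild-type. Every knockout array was below every wild-type array in both. The same held for Icam2, at 306, 351 and 308 in knockout, against 378, 446 and 387 in wild-type. That made 3 of the 18 tested ligands, where knockout was below in 5.45% of all genes. Postn, periostin, read 753, 705 and 1551 in knockout, against 1415, 1645 and 1480.3 in wild-type, with knockout 66 among the wild-type values. The list's mean deviation was also lowest in knockout 1, at -0.22, and was -0.10 in knockout 26 and 0.065 in knockout 66, against 0.14, 0.099 and 0.021 in wild-type 13, 23 and 57. Fibronectin (Fn1) gave -0.0061 ± 0.088 and vitronectin (Vtn) 0.083 ± 0.52. Of the lettered leukocyte alpha chains, 2 were tested, Itgal at 0.21 ± 0.40 and Itgae at -0.55 ± 0.26.

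Among markers of other cells, those of cushion mesenchyme and neural crest were lower in every knockout array than in any wild-type array, taken as a mean. Of 10 such markers, 9 were below 0 (49.6% of all genes tested), with a median of -0.21, and 4 of them had an unadjusted p under 0.05 (2.51% of all genes were lower at that mark). This list shares Postn with the integrin ligands. Its mean deviation was -0.22 to -0.11 in knockout and 0.11 to 0.20 in wild-type, and its summed signal 10286 to 10947 in knockout and 12179 to 12436 in wild-type, with no marker at 0. Endothelial and endocardial markers had a median of 0.064 over 10 and summed signals of 6119 to 6523 in knockout and 6069 to 6477 in wild-type, and cardiomyocyte markers a median of 0.034 over 10. Epicardial markers had a median of 0.053 over 9 tested, of which 5 were above 0 and 4 below. In limma 1 of them had an unadjusted p under 0.05, and it was higher in knockout (2.18% of all genes). Their mean deviation was higher in every knockout array (0.018 to 0.077) than in any wild-type array (-0.074 to -0.0115). Their summed signals, 5631 to 6457 in knockout and 5397 to 5897 in wild-type, overlapped. Megakaryocyte and platelet markers, which go with Itga2b and Itgb3, had a median of -0.14 over 6 tested, with 5 below 0 and 1 above. In limma 1 was lower and 1 higher at an unadjusted p under 0.05 (2.51% and 2.18% of all genes). Their summed signals were 2211 to 2467 in knockout and 2392 to 2956 in wild-type. Of 8 macrophage and leukocyte markers, 5 were below the filter, as were Itgb2 and Itgb7. The part in the member values of cushion or other cells, and of the actin and Gapdh 3' to 5' ratios, which did not overlap between genotypes, was not tested.

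**Figure D4:**
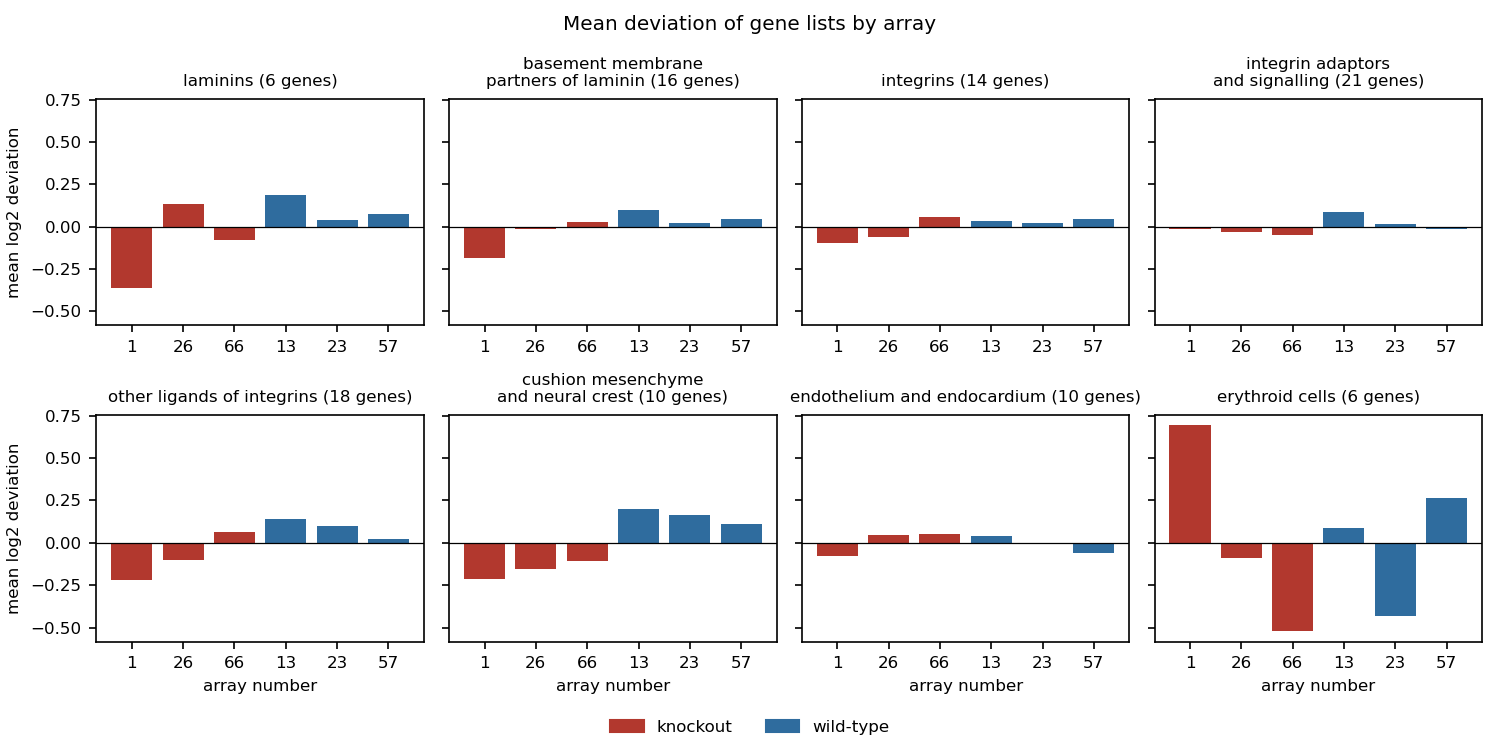
Mean deviation of log2(signal + 16) from the 6-array average (y axis) for 8 gene lists in each array (x axis, array number, knockout red on the left and wild-type blue on the right). Knockout 1 is the lowest array for laminins (-0.36), basement membrane partners (-0.18), integrins (-0.096), other ligands (-0.22) and cushion markers (-0.22), and the highest for erythroid markers (0.69), while cushion markers are below 0 in all knockout arrays and above it in all wild-type arrays.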

How the data were processed

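Total RNA of 6 ventricle samples was hybridised to 1-colour arrays. The deposited values are linear probe set intensities, and the submitters' processing notes name GCOS and MAS5, with no version. The notes state neither scaling nor detection calls, and the equal trimmed means were found from the values. The number of arrays limits the precision. Of 45101 probe sets, 64 controls were left out, and 34945 of the rest had 1 gene symbol in the platform annotation, 932 had several and 9160 were unlisted. All 31 members matched the RefSeq gene table by symbol. Intensities were taken as log2(intensity + 16), which understates changes of dim genes. The 22518 probe sets whose mean log2 value was above the median were fitted in limma 3.58.1 (R 4.3.3; lmFit, eBayes with trend, two-sided), and 1 probe set per gene was adjusted by Benjamini-Hochberg over 11661 genes, with calls at 0.05. On simulated data for the knockout against wild-type comparison (11661 genes), the fit recovered 16 of 50 genes shifted by 0.5, 46 of 50 by 1, 50 of 50 by 2 and 39 of 50 by -1, with 6 false calls. The simulated noise was independent between genes and arrays, with an SD set by mean signal alone. It held no variation shared by the genes of an array, so these counts may overstate recovery in the real arrays. Genes given in full were those with an unadjusted p under 0.05, those whose genotypes did not overlap, the 12 tested members of smallest p and 12 chains known in heart and vessel wall. For each partner list, at most 4 genes with an unadjusted p under 0.05 were named, and Tln1, Vcl, Ilk, Fermt2, Fn1, Vtn, Icam2, Itgal and Itgae were added after their values were seen. Members and lists were chosen with earlier results of these data known. Alternatives were other pseudocounts, filters, scalings, variance models, array quality weights, probe set choices and each array left out. Promoter windows are RefSeq's, build GRCm38.p6. Figures used Matplotlib 3.10.9 under Python 3.11.15.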

Additional observations from a re-analysis of the deposited data

How the results depend on the processing

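No paired analysis was possible because the genotypes share no replicate number. Over 17 alternatives, 0 integrin or laminin genes were called in any. Over all genes, 8 were called with array quality weights and 0 to 2 with an array left out (2 without knockout 1, 1 without knockout 66). Members at an unadjusted p under 0.05, 2 as reported, numbered 0 after centring on array medians (3.02% of all genes past the mark), 1 (Itga1) with eBayes without trend (4.18%), with array quality weights (12.1%) and with _x_at and _s_at probe sets left out (4.74%), 3 when probe sets were averaged per gene (4.8%; Itga1, Lamb1 and Itga4, which was higher in knockout, p 0.0492 and adjusted p 0.966 in limma), and 0 to 4 with an array left out (2.8% to 7.48%). Members whose genotypes did not overlap were 2 as reported, with 10.9% of all genes. They numbered 1 after quantile normalization (11.3%), 0 after centring (8.22%) and 4 when probe sets were averaged per gene (10.9%). With an array left out they numbered 2 to 8, when 18.1% to 24.9% of all genes did not overlap. The averaged Itga4 value in both counts included the probe set that passed the filter only through knockout. The averaged Lamb1 value, counted at an unadjusted p under 0.05, included the dim probe set that passed only through wild-type. The median of the tested integrins ran from -0.11 to -0.0076 and that of the laminins from -0.33 to -0.082, none above 0. Of the single genes given in full, signs turned for Itga6 (0.065) and Lamc1 (0.044) with array quality weights, and with an array left out for Itga9 (-0.12 to 0.030), Lamc1 (-0.30 to 0.036) and Lama2 (-0.12 to 0.25); the cause was not tested. The others kept their sign in every alternative that kept them. A stricter filter, at the 70th percentile, kept 13 of the 20 tested members. Of the tested genes given in full, it left out Itga5, Itgb8, Lama2 and Lamb2.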
